A study of Mus musculus with 3 samples.

Results

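The chemokines Cxcl9, Cxcl10 and Cxcl16 and the receptors Cxcr3 and Cxcr6 are the subject here, 5 of the 32285 genes counted in the series. They were matched by gene symbol to the feature list of each library, and all 5 were found once. RNA of single cells was sequenced from live white blood cells, sorted for CD45, of liver tumours of 18-week-old C57BL6 MYC-ON mice, so MYC-ON is shared by every group. The groups are control, DU101 treated and DU102 treated, each with 1 library. The files of the library labelled control name it DMSO. The dose and duration of DU101 and DU102, the treatment of the control animals and how many animals went into a library went unstated in the sources read here, as did how MYC is switched on and in which cells.

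CXCL9 and CXCL10 are secreted chemokines that are induced by interferon and bind CXCR3, a receptor on activated T cells, natural killer (NK) cells and plasmacytoid dendritic cells (pDC). CXCL16 is made as a membrane protein that can be cut off the cell surface, and it binds CXCR6, a receptor on tissue-resident and activated T cells. In liver, CXCR6 is known from resident T cells, NKT cells and innate lymphoid cells of type 1 (ILC1), and CXCL16 from sinusoidal endothelium, macrophages and dendritic cells.

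After filtering, 10154, 13799 and 11461 cells remained in control, DU101 and DU102, with medians of 6336, 4832 and 5091 UMIs (counted RNA molecules) per cell. Values given 3 at a time below are in this order. Each cell was placed in a cell type by the summed UMIs of marker genes, none of which is among the 5 genes, and type names stand for likeness to those markers. The gates took 73.6, 72.5 and 70.1% of cells, another 12.6, 12.3 and 18.0% met gates of more than 1 lineage and were set aside as mixed, and the rest met none. Of 69 marker genes kept out of the gates, 56 were highest in their own type. Hepatocyte or tumour cells and endothelial cells lack CD45, so the sort can set how many of them were caught and which. Xist, an RNA of female cells, was seen in 56.0, 0.138 and 0.0698% of cells, and RNA of Y-linked genes in 21.0, 46.8 and 52.5%. Control thus mixed both sexes while DU101 and DU102 held hardly any female cells, and sex cannot be told apart from treatment in any comparison with control. With 1 library a group there is no test between groups. Brackets hold 95% intervals, exact Poisson for UMIs and their ratios and exact Clopper-Pearson for shares of cells, and cover counting error only, not differences between animals. They treat UMIs as independent, although several can come from 1 cell.

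**Figure D1:**
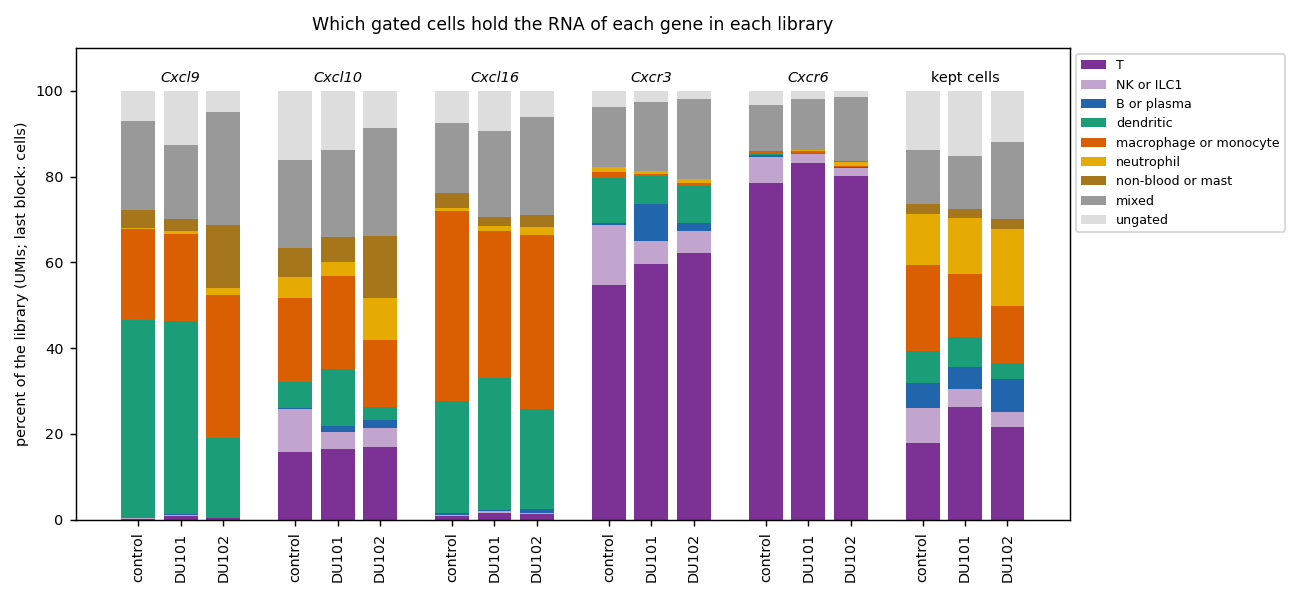
Percent of the UMIs of each gene in a library (y axis, stacked bars) that came from each broad group of cells (colours), with the last 3 bars giving the percent of kept cells. T cells held 78.6, 83.1 and 80.1% of Cxcr6 UMIs, while Cxcl16 UMIs lay mostly in macrophages, monocytes and dendritic cells.

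Receptor RNA lay mostly in T cells. They made up 17.9, 26.3 and 21.6% of cells but held 78.6, 83.1 and 80.1% of Cxcr6 UMIs and 54.8, 59.6 and 62.3% of Cxcr3 UMIs. Most Cxcl9 and Cxcl16 RNA lay elsewhere. Dendritic cells were 7.52, 7.04 and 3.77% of cells and held 46.2, 45.0 and 18.5% of Cxcl9 UMIs and 26.1, 30.9 and 23.4% of Cxcl16 UMIs. Macrophages and monocytes held 44.4, 34.2 and 40.6% of Cxcl16 UMIs. Cxcl10 was the most widely spread of the ligands, with 15.8, 16.5 and 16.8% of its UMIs in T cells and 19.6, 21.8 and 15.7% in macrophages and monocytes. Mixed cells held 20.5, 20.2 and 25.2% of Cxcl10 UMIs. Over all kept cells Cxcl9 was at 41.1, 81.7 and 21.1 CPM, which are UMIs scaled to a common total in each library or cell type. Cxcl10 was at 116, 145 and 92.2 and Cxcl16 at 64.2, 58.0 and 32.2 CPM. Of the receptors, Cxcr3 was at 23.3, 32.1 and 22.5 and Cxcr6 at 21.8, 49.5 and 28.7 CPM. DU101 was highest for each gene but Cxcl16, for which control was. These totals move with the make-up of a library, so fewer cells of a type and less RNA per cell cannot be told apart in them, and the cell types are taken singly below.

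**Figure D2:**
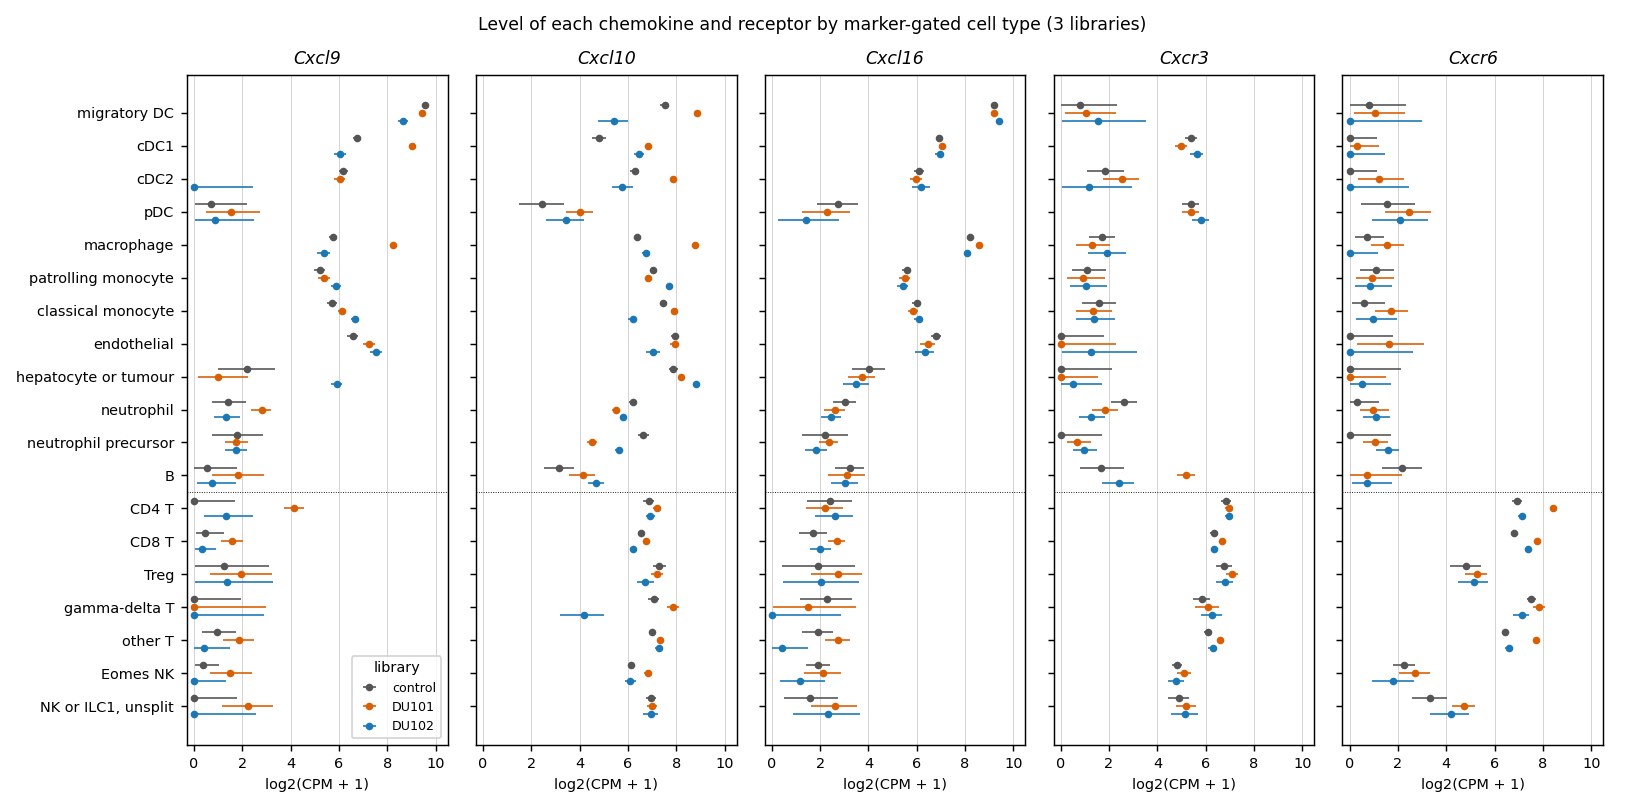
Level of each gene as log2(CPM + 1) (x axis, with 95% Poisson interval) in each cell type (y axis), with 1 point for each library (colours) and 1 panel for each gene. Points of Cxcl16 lie furthest right in migratory DC and macrophages and those of Cxcr6 in T cells, below the dotted line.

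Cxcl9 (ENSMUSG00000029417) lies on the minus strand at chr5:92321331-92328079, and Cxcl10 (ENSMUSG00000034855), also on the minus strand, at chr5:92346638-92348889, 18558 bases away (RefSeq positions, GRCm38.p6). The 250 bases before the start of each are shown because interferon-activated factors and NF-kB are known to act on these genes through upstream DNA. Capitals mark matches on either strand to GAAANNGAAA (core of the interferon-stimulated response element, ISRE), TTCNNNGAA (the interferon-gamma activated site, GAS) or GGGNNNNNCC (NF-kB), with N any base. RefSeq sequences, GRCm38.p6, are read 5′ to 3′ along the gene's strand, minus in both.
Cxcl9, chr5:92328080-92328329: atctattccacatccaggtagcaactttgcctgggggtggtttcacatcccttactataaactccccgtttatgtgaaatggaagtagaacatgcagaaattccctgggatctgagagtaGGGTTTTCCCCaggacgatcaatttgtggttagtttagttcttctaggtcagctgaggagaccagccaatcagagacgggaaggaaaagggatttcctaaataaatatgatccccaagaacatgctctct
Cxcl10, chr5:92348890-92349139: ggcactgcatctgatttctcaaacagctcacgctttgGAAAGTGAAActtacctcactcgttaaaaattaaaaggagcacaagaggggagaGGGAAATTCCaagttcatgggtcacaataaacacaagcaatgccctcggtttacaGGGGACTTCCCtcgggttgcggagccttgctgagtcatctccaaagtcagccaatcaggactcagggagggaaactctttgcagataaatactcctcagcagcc
Cxcl10 has an ISRE core match, GAAAGTGAAA, at 213 to 204 bases before its start, and NF-kB matches at 159 to 150 and at 104 to 94 bases. Cxcl9 has overlapping NF-kB matches at 130 to 120 bases and no match to the ISRE core or GAS letters. Among 32851 promoters of the same length, the ISRE core letters occur in 2.98%, GAS in 7.02%, NF-kB in 45.8%, and ISRE core with NF-kB in 1.01%. A match is a stretch of letters and not a measured binding site.

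Migratory dendritic cells (migratory DC), mature Ccr7-bearing cells that carry antigen to lymph nodes, had the highest Cxcl9 level in each library among the 19 cell types with 50 or more cells in each, to which the order of levels is limited here and below. It was 749, 693 and 403 CPM in 125, 192 and 55 cells, of which 24.8, 27.6 and 23.6% held a Cxcl9 UMI. cDC1, the dendritic cells that show antigen to CD8 T cells, followed in control and DU101, at 106, 526 and 65.5 CPM. Macrophages were at 52.4, 301 and 40.1 CPM. DU101 stands above both other libraries in cDC1 and in macrophages. In endothelial cells, which line vessels, Cxcl9 was at 93.6, 150 and 185 CPM, in 38.8, 41.3 and 31.2% of cells. cDC2, dendritic cells that show antigen to CD4 T cells, had 71.8, 64.4 and 0 CPM, with no UMI in the 83 cDC2 of DU102, which allows a share of cells of up to 4.35% (95% limit) and, at 3 counts, 3.66 CPM. B cells, which should lack Cxcl9, held 1, 4 and 2 UMIs in all, in 0.177, 0.976 and 0.242% of cells at median depths of 3198, 2911 and 3010 UMIs. Migratory DC were deeper, at 10766, 8214 and 8735 UMIs, and thinned to 2000 UMIs a cell 17.4, 19.7 and 13.7% of them held Cxcl9.

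Few cells held much of the Cxcl9 RNA. The 5 cells with the most UMIs held 71.6, 54.3 and 92.9% of it in migratory DC, 69.5, 49.2 and 85.0% in cDC1 and 80.6, 53.1 and 83.5% in macrophages. In migratory DC the same measure for Cxcl16 was 14.8, 11.4 and 24.2%, so Cxcl16 was spread over many cells. The gated migratory DC were also not uniform. When all cells were clustered on their whole RNA, 39.0, 57.4 and 32.4% of the Cxcl9 UMIs of this gate lay in cells of cDC1 clusters and 41.9, 18.3 and 0% in cells of cDC2 clusters, against 17.0, 19.4 and 13.3% in the migratory DC cluster. In DU102 another 54.3% lay in macrophage clusters. With types taken from clusters in place of gates, migratory DC were at 202, 192 and 103 CPM, cDC1 at 146, 474 and 99.5 and macrophages at 57.6, 289 and 93.4, and cDC1 ranked first over the 3 libraries together.

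**Figure D3:**
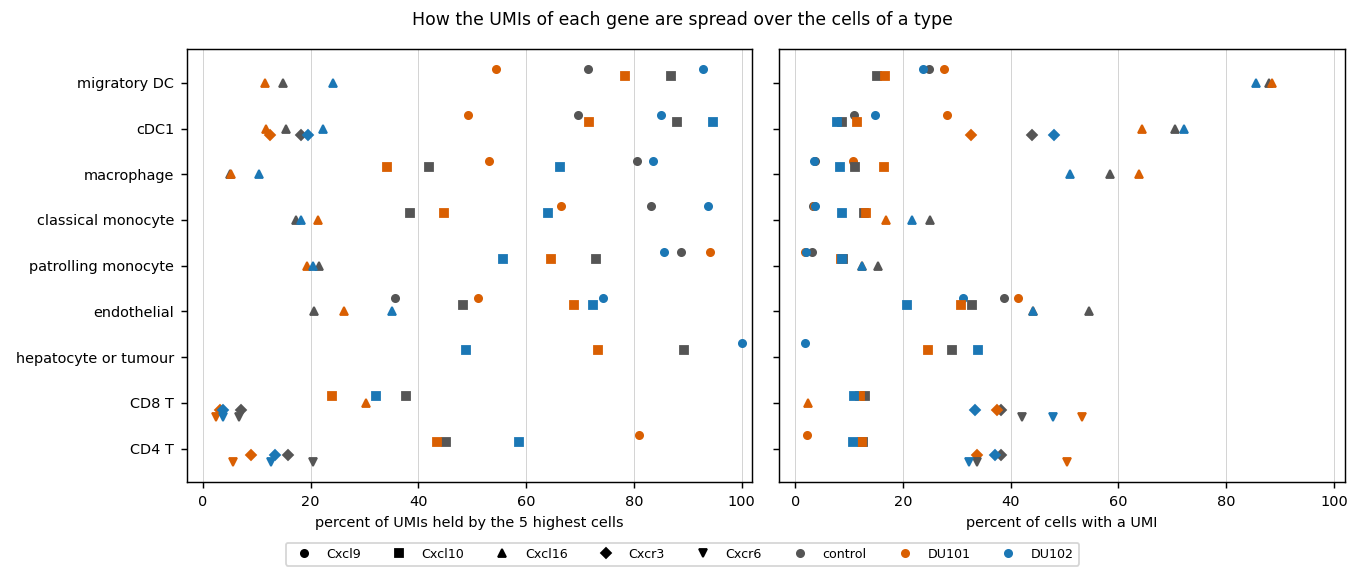
Percent of UMIs held by the 5 highest cells (left panel, x axis) and percent of cells with a UMI (right panel, x axis) in 9 cell types (y axis), for each gene (marker shape) and library (colour) with at least 30 UMIs. In migratory DC the Cxcl9 points lie far to the right of the Cxcl16 points in the left panel, and the order is turned in the right panel.

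Cxcl10 was highest over the 3 libraries together in hepatocyte or tumour cells, at 234, 289 and 447 CPM, in 29.2, 24.6 and 33.9% of cells. Endothelial cells were at 247, 243 and 132 CPM and led in control. The migratory DC gate led in DU101, at 183, 467 and 42.2 CPM across the libraries. There 10.6% of its DU101 UMIs lay in cells of the migratory DC cluster, against 45.2% in 5 cells of cDC2 clusters and 29.1% in 6 of cDC1 clusters. With types from clusters migratory DC were at 139, 63.9 and 30.5 CPM and did not lead. Hepatocyte or tumour cells and endothelial cells lack CD45. With gates of the doubled marker minimum, with clusters in place of gates or with mixed cells added, endothelial cells ranked first in place of hepatocyte or tumour cells. Without the 5 highest cells of each library, hepatocyte or tumour cells led at 141 CPM over the libraries together, in place of 348. Macrophages (122) and T cells outside the named subsets (100) then came next, ahead of migratory DC and endothelial cells. Classical monocytes, which enter tissue from blood, held 172, 239 and 72.2 CPM and gated patrolling monocytes, which crawl along vessel walls, 132, 113 and 207. Of the latter, 39.8, 28.5 and 32.2% lay in the classical monocyte cluster, and patrolling monocytes taken by cluster were at 39.3, 23.5 and 14.8 CPM. Cxcl10 RNA was also counted in cells that carry the receptor, at 92.3, 105 and 72.8 CPM in CD8 T cells and 115, 147 and 121 in CD4 T cells. ILC1, innate cells kin to NK cells, had 362, 221 and 367 CPM in 90, 59 and 41 cells, too few to enter the order of types. ILC1 taken by cluster were at 171, 146 and 216 CPM in 260, 252 and 157 cells. B cells stood far below, at 7.93, 16.6 and 24.9 CPM, with a UMI in 2.66, 4.39 and 3.02% of them at median depths of 3198, 2911 and 3010 UMIs. CD4 T cells held one in 12.6, 12.4 and 10.7% at 4736, 3533 and 4104 UMIs, and thinned to 2000 UMIs a cell the shares were 9.36, 7.80 and 7.12% against 1.47, 3.48 and 2.07% in B cells.

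Cxcl16 (ENSMUSG00000018920, chr11:70454389-70459984, minus strand) had the steadiest pattern of the ligands, with the same order of the first 9 cell types in all 3 libraries. Migratory DC led at 584, 585 and 682 CPM, with a UMI in 88.0, 88.5 and 85.5% of cells. Here 80.3, 81.5 and 85.1% of the UMIs lay in the migratory DC cluster. Macrophages came next at 293, 380.1 and 267 CPM and 58.5, 63.9 and 51.0% of cells. Then followed cDC1 at 121, 131 and 122 and endothelial cells at 110.3, 86.9 and 79.9 CPM. After them came cDC2 at 66.9, 61.4 and 72.0 and classical monocytes at 62.7, 56.4 and 66.3 CPM, whose intervals overlap over the libraries together. Kupffer cells, the resident macrophages of liver, were at 254, 268 and 351 CPM, but the gate took 100, 36 and 40 of them, too few to compare. Thinned to 2000 UMIs a cell, 61.2, 65.0 and 66.7% of migratory DC and 1.47, 1.07 and 0.907% of B cells held Cxcl16. B cells had 8.37, 7.64 and 7.21 CPM and T cells together 2.84, 5.11 and 2.60, so T cells carried little Cxcl16 RNA, whereas cDC1 held both Cxcr3 and Cxcl16 RNA.

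Cxcr3 (ENSMUSG00000050232, chrX:101731535-101734147, minus strand), on the X chromosome, was highest in CD4 T cells without Foxp3 at 113, 124 and 124 CPM and in regulatory T cells (Treg), which restrain immune responses, at 108, 136 and 109. The intervals of both types overlap over the libraries together. CD8 T cells were at 79.6, 101 and 79.8 CPM and gamma-delta T cells at 56.2, 66.6 and 75.7. A UMI was seen in 38.1, 33.7 and 37.2% of CD4 T cells at median depths of 4736, 3533 and 4104 UMIs. In macrophages, which should lack Cxcr3, the share was 1.65, 0.863 and 1.85% at 7277, 5228 and 6102 UMIs. Outside the T cells, pDC, which make type I interferon, held 41.2, 40.7 and 54.3 CPM and cDC1 41.4, 30.5 and 48.2. NK cells with Eomes were at 27.2, 33.7 and 26.4 CPM. The pDC and cDC1 shares, 26.4, 21.8 and 29.1% and 43.9, 32.7 and 48.1%, stand well above those of macrophages in each library. However, cDC1 were deeper cells than CD4 T cells, at medians of 16896, 14692 and 15957 UMIs. With cells thinned to equal depth, 4.62, 6.32 and 7.75% of cDC1 and 7.28, 6.45 and 12.2% of pDC held Cxcr3. The thinned shares were 19.5, 21.5 and 20.1% in CD4 T cells and 0.588, 0.344 and 0.847% in macrophages.

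Cxcr6 (ENSMUSG00000048521, chr9:123806477-123811754, plus strand) was a gene of T cells and ILC1. CD4 T cells were at 121, 345 and 139.5 CPM, CD8 T cells, which kill target cells, at 110.4, 218 and 167 and gamma-delta T cells at 183, 228 and 138. Of gated gamma-delta T cells, 54.0, 44.3 and 50.7% lay in 1 NK or ILC1 cluster. Taken from clusters, gamma-delta T cells were at 420, 362 and 215 CPM in 54, 50 and 36 cells and ranked first over the libraries together. Treg, which shared the high Cxcr3 of CD4 T cells, had 27.1, 37.2 and 34.4 CPM, with a UMI in 9.70, 12.7 and 7.75% of them against 33.7, 50.4 and 32.2% of CD4 T cells. ILC1 held 84.0, 118 and 94.2 CPM and NK cells with Eomes 3.78, 5.49 and 2.44, an order that was the same in each library. Macrophages held 4, 8 and 0 UMIs in 786, 695 and 433 cells. Cells without naive markers stood above naive-type cells, with 209, 313 and 225 against 29.2, 55.7 and 66.1 CPM in CD8 T cells and 193, 424 and 193 against 41.0, 108 and 40.7 in CD4 T cells. For Cxcr3 the same split of CD8 T cells gave 98.0, 112 and 85.7 against 47.9, 79.3 and 61.7 CPM.

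Both receptors were often seen in 1 cell. Among CD8 T cells 19.9, 21.4 and 17.9% held UMIs of Cxcr3 and Cxcr6. In the non-naive ones the joint share was 25.9, 22.9 and 18.8%, beside 25.3, 22.1 and 17.7% for the product of the single shares. In naive-type CD8 T cells it was 9.76, 14.4 and 13.8% beside 5.70, 10.9 and 9.52%. Joint detection thus lay close to the product in non-naive cells and above it in naive-type cells in each library. Cxcl9 and Cxcl10 were seen together in 1.02, 4.17 and 1.62% of macrophages, beside a product of 0.408, 1.79 and 0.288%, and in 4.05, 6.32 and 3.10% of cDC1, beside 0.952, 3.26 and 1.14%. Of macrophages with Cxcl9, 27.6, 38.7 and 46.7% also held Cxcl10, against 10.4, 13.9 and 6.94% of those without. Cells with more UMIs show any pair of genes more often, and the part of depth in these shares was not tested.

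What else the cells with a member's RNA carried was compared within each type and library. CD8 T cells with a Cxcr6 UMI had more RNA of Havcr2 (the checkpoint receptor TIM-3), at 16.8 against 4.85, 28.3 against 11.0 and 29.0 against 12.3 CPM, and of Rgs16, a regulator of G protein signals, at 61.9 against 17.8, 91.0 against 30.6 and 52.9 against 26.1 CPM. They had less Ccr7, the receptor that leads naive T cells to lymph nodes, at 11.1 against 44.3, 11.0 against 35.1 and 10.6 against 34.9 CPM. In CD4 T cells with Cxcr6, Id2, a regulator of effector T cells, was at 913 against 368, 781 against 441 and 684 against 287 CPM. CD8 T cells with Cxcr3 had more RNA of Birc5, a gene of dividing cells, at 135 against 53.8, 148 against 70.5 and 139.9 against 80.6 CPM, and less of the killing protease Gzma, at 379.7 against 892, 384 against 572 and 1109 against 1391. Cells with more UMIs show any gene more often, and the part of depth in these differences was not tested.

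Among ligand cells, macrophages with Cxcl9 carried more Gbp2, an interferon-induced GTPase, at 94.1 against 23.4, 286 against 39.2 and 245 against 26.7 CPM, and less Cd5l, a gene of resident macrophages, at 123 against 409, 75.5 against 457 and 141 against 364. Macrophages with Cxcl10 had more Tnf, an inflammatory cytokine, at 200.5 against 33.9, 243 against 43.3 and 126 against 21.4 CPM, and more Rsad2, an antiviral gene, at 190 against 50.9, 570.1 against 76.3 and 186 against 49.9. cDC1 with Cxcl9 carried more Relb, an NF-kB subunit of mature dendritic cells, at 51.8 against 7.89, 45.2 against 11.6 and 47.2 against 10.6 CPM, and less of the complement gene C1qa, at 12.3 against 61.2, 32.5 against 83.4 and 8.85 against 115. Migratory DC with Cxcl9 had more Wdfy4, a gene cDC1 need for cross-presentation, at 165 against 54.0, 127 against 51.9 and 201 against 56.1 CPM, and less Fabp5, a fatty acid carrier, at 613 against 1779.8, 819.8 against 2009 and 317 against 1374. Of these 31, 53 and 13 cells, 6, 13 and 4 lay in cDC1 clusters and 6, 6 and 0 in cDC2 clusters. Wdfy4 was also a marker kept to check cDC1, and the part of this make-up in both differences was not tested. Of the 786, 695 and 433 gated macrophages, 200, 139 and 109 lay in the Kupffer cluster. Of the 29, 75 and 15 macrophages with Cxcl9, 2, 5 and 3 did. Cd5l was likewise a marker kept to check Kupffer cells. The part of this make-up in the macrophage differences was not tested. Median UMIs of macrophages with Cxcl9 and of those without were 7915 against 7256, 7630 against 4932 and 7009 against 6066, and the part of this depth in the gene differences was not tested.

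DU101 against control asks where ligand and receptor RNA differs in tumours of treated animals. A gene counts as higher or lower in a cell type when it differs by at least 1.5-fold with the interval on that side of 1 and at least 30 UMIs over both libraries, in types with 50 or more cells in each. This is a rule of size and not a test. Cxcr6 was higher in 4 of 7 types that held enough UMIs and lower in none, the types being CD4 T, CD8 T, other T and the NK cells or ILC1 that Eomes did not split. Cxcl9 was higher in 5 of 9 and lower in none, namely in neutrophils, cDC1, macrophages, endothelial cells and CD4 T cells. In neutrophils the call rests on 37 against 7 UMIs, with 22 of the 37 in 1 cell, and was lost with the doubled gate minimum (log2 ratio 0.49), with types from clusters (1.05) and without the 5 highest cells (1.77, with under 30 UMIs left). The share of thinned neutrophils with a UMI was 0.583, 0.374 and 0.402%. In endothelial cells this call was lost under 4 alternatives (log2 ratios of 0.25 to 0.56). In CD4 T cells it rests on 42 against 0 UMIs, with 29 of the 42 in 1 cell and 81.0% in 5. It was lost without the 5 highest cells (0.76, with under 30 UMIs left). Cxcl10 was higher in 8 and lower in 2 of 19, the lower ones being neutrophils and their precursors. Cxcl16 was higher in 1 of 13, CD8 T cells, where the log2 ratio turned to -0.14 among cells with Y-linked RNA but without Xist, and Cxcr3 higher in 1 and lower in 1 of 11. Over all genes and the 19 types together the same rule marked 11.7% as higher or lower.

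**Figure D4:**
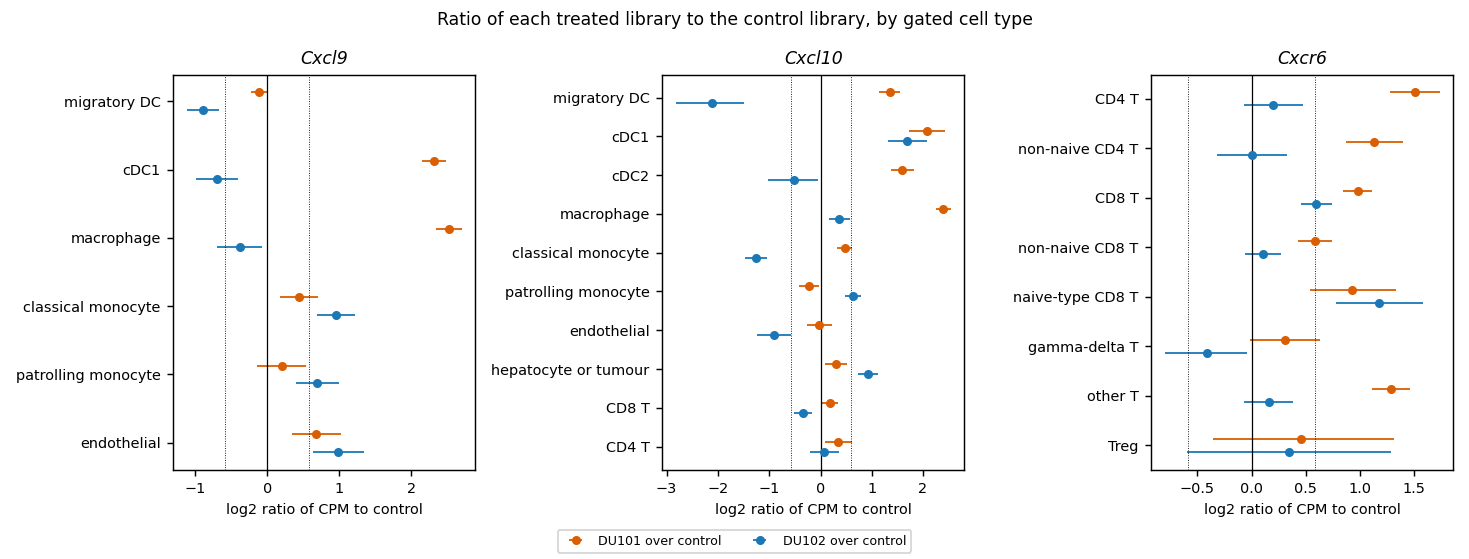
Log2 ratio of CPM to control with 95% Poisson interval (x axis) for Cxcl9, Cxcl10 and Cxcr6 (panels) by cell type (y axis), for DU101 and DU102 (colours), which share the control library. Dotted lines mark 1.5-fold. Cxcr6 in CD4 T cells and Cxcl9 in macrophages and cDC1 lie to the right for DU101.

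In CD4 T cells, Cxcr6 was 2.84-fold higher (2.43 to 3.34) in DU101 than in control, where 5.13% of genes were higher. Thinned to 2000 UMIs a cell, 20.2, 40.6 and 23.2% of cells held a UMI, so the DU101 share was above both others at equal depth. CD8 T cells were 1.97-fold higher (1.80 to 2.17), with 3.86% of genes higher. Non-naive cells were 317 of the 699 CD8 T cells of control and 1130 of the 1793 of DU101. Among them Cxcr6 was at 209 and 313 CPM, with a UMI in 60.3 and 61.9% of cells at median depths of 5341 and 3844.5 UMIs. At an equal depth of 2000 UMIs these shares were 34.5 and 42.7%. The 1.97-fold ratio thus also moves with the share of non-naive cells. The other T cells, which met none of the CD4, CD8 and gamma-delta gates, were 2.44-fold higher (2.16 to 2.76), beside 5.85%. Their levels were 86.3, 210.4 and 96.2 CPM. Of this gate 31.4, 21.5 and 21.1% lay in the larger NK or ILC1 cluster and 8.98, 1.40 and 2.64% in the smaller one. A different make-up of this gate and a different level per T cell cannot be told apart in its ratio. In non-naive CD4 T cells, levels of 193, 424 and 193 CPM again stood apart in DU101, and naive-type cells did the same at 41.0, 108 and 40.7. The naive-type values rest on 18, 43 and 24 UMIs in 5, 17 and 13 cells. Among cells with Y-linked RNA but without Xist, the log2 ratio was 0.77 in CD8 T cells and 1.53 in the other T cells, while too few such control CD4 T cells were left.

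Macrophages of DU101 held more of both interferon-induced ligands. Cxcl9 was 5.74-fold higher (5.07 to 6.50), beside 3.49% of genes, and the share of cells with a UMI was 3.69, 10.8 and 3.46% as counted and 2.06, 8.76 and 2.26% when thinned. Among cells with Y-linked RNA but without Xist its log2 ratio was 0.75 in place of 2.52, and without the 5 highest cells of each library it was 3.79. Cxcl10 in macrophages, at 82.7, 435 and 107 CPM, was 5.26-fold higher (4.76 to 5.81), and 1.56 on the log2 scale with types from clusters. cDC1 had 4.97-fold higher (4.42 to 5.60) Cxcl9, beside 2.45% of genes, with shares of 11.0, 28.3 and 14.7% of cells, and its log2 ratio ran from 1.70 to 3.16 over 9 alternatives. Their Cxcl10, at 27.1, 114 and 87.6 CPM, was 4.20-fold higher (3.32 to 5.36). In cDC2 Cxcl10, at 77.2, 234 and 53.7 CPM, was 3.03-fold higher (2.60 to 3.54), beside 2.25% of genes. Migratory DC were 2.55-fold higher (2.21 to 2.95) for Cxcl10, beside 3.58%, but with types taken from clusters the log2 ratio was -1.12. Their Cxcl9 did not pass the rule, nor did Cxcl16 there, at a ratio of 1.00 (0.914 to 1.10).

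B cells, the lymphocytes that give rise to plasma cells, stood out for Cxcr3 in DU101. Their levels were 2.20, 35.7 and 4.26 CPM from 5, 56 and 13 UMIs, in 0.887, 8.54 and 1.33% of 564, 410 and 827 cells, and 0.184, 4.01 and 0.777% when thinned. That is 16.2-fold higher (6.54 to 51.8) in DU101 than in control, where 3.44% of genes were higher. Over 10 alternatives the log2 ratio ran from 3.02 to 4.74. The DU101 share lies above the 0.863% of DU101 macrophages, which are deeper cells. Plasma cells, the antibody-secreting stage, held 10.3, 45.0 and 30.7 CPM, from 25, 312 and 48 cells, too few in control and DU102 to compare. Among the T cell types of the order, Cxcr3 was past the rule in none, with CD8 T cells at a ratio of 1.27 (1.13 to 1.43). Naive-type CD8 T cells, a part of these that was not counted apart, did differ by more than 1.5-fold. They were at 47.9 (40.0 to 57.0) CPM in control and 79.3 (70.0 to 89.5) in DU101, with thinned shares of 5.23 and 12.0%.

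DU102 against control showed fewer marks for Cxcr6, which was higher in 1 of 6 types, and a mixed picture for the interferon-induced ligands. Cxcl9 was higher in 4 and lower in 3 of 8 types, Cxcl10 higher in 4 and lower in 6 of 18, and Cxcl16 neither in any of 11. Cxcr3 was lower in 1 of 10, the neutrophils, where 18.1% of genes were lower. The rule marked 8.66% of genes as higher or lower over the 19 types together. The comparison uses the same control library as DU101, so a low or high control value enters both.

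CD8 T cells held Cxcr6 1.52-fold higher (1.38 to 1.67) in DU102 than in control, with 5.12% of genes higher, and the log2 ratio was 0.63 among cells with Y-linked RNA but without Xist. The call was lost under 4 alternatives, whose log2 ratios of 0.56 to 0.58 lay just short of 1.5-fold. In non-naive CD8 T cells, at 209, 313 and 225 CPM, the ratio was 1.08 (0.960 to 1.21), while naive-type cells were at 29.2, 55.7 and 66.1 CPM. The cDC1, cDC2 and migratory DC gates held less Cxcl9. In migratory DC it was 1.86-fold lower (1.60 to 2.17), beside 7.45% of genes. Without the 5 highest cells its log2 ratio was -2.81. cDC1 were 1.62-fold lower (1.32 to 1.99), beside 3.42%, a call lost with the doubled gate minimum (-0.24) and with types from clusters (-0.55). cDC2, with no UMI in DU102, were at least 19.6-fold lower against a floor of 3 counts, beside 3.06%, but that call was lost without the 5 highest cells (-0.59). Cxcl10 moved apart from Cxcl9 in cDC1, where it was 3.24-fold higher (2.49 to 4.24), beside 3.02% of genes, a call lost without the 5 highest cells (0.55), and in migratory DC it was 4.34-fold lower (2.80 to 7.05). Hepatocyte or tumour cells had 3.58, 1.01 and 58.9 CPM of Cxcl9, and 138 of the 144 UMIs of DU102 came from 1 cell. Their Cxcl10 was 1.91-fold higher (1.66 to 2.19), beside 3.27% of genes, but the log2 ratio was -0.79 when each cell was weighted alike.

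Several DU102 marks depended on how the cells were drawn. Cxcl9 in endothelial cells was 1.98-fold higher (1.55 to 2.53), beside 6.11% of genes, but its log2 ratio was -0.34 with the doubled gate minimum and -0.33 without the 5 highest cells of each library. In patrolling monocytes Cxcl9 was 1.62-fold higher (1.31 to 2.00) and Cxcl10 1.56-fold higher (1.40 to 1.74), beside 3.66%, and with types taken from clusters the log2 ratios were -5.10 and -1.40. In classical monocytes Cxcl10 was 2.39-fold lower (2.05 to 2.79), beside 2.72%, but the log2 ratio was 2.12 among cells with Y-linked RNA but without Xist. Cxcl9 in the same monocytes was 1.94-fold higher (1.62 to 2.33), beside 3.56%, and -0.48 on the log2 scale without the 5 highest cells. The causes of these turns were not tested.

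DU101 and DU102 are known here by code name only, and since their doses and times are not given, they cannot be matched and the values are side by side. In CD4 T cells Cxcr6 was at 345 CPM in DU101 and 139.5 in DU102, 2.47-fold higher (2.16 to 2.84), where 4.02% of genes were higher. Cxcl9 was 8.03-fold higher (6.76 to 9.59) in cDC1, beside 2.70%, and 7.49-fold higher (6.19 to 9.15) in macrophages, beside 3.38%. Cxcr3 in B cells was 8.37-fold higher (4.52 to 16.7), beside 3.37%, and in cDC1 1.58-fold lower (1.21 to 2.07), beside 7.06%. Cxcl16 in migratory DC had a ratio of 0.859 (0.761 to 0.971) and did not pass the rule.

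Genes that induce, release or cut the ligands, other ligands and receptors of the family, and genes that regulate the receptors made a list of 37, of which 36 were counted. They were read in the 3 types that lead for a member. In CD4 T cells, 2 of 28 measured were higher and 1 lower in DU101 than in control, shares near those of all genes, 5.13% higher and 5.23% lower. The list's median log2 ratio was 0.15, beside 0.0083 for all genes. Stat2, which carries type I interferon signals to the nucleus, was at 27.9 against 15.5 CPM, 1.80-fold higher (1.13 to 2.97). With DU102 against control, 1 of 29 was higher and 1 lower, with a median of 0.17 beside 0.040, and 3.86% of all genes higher and 2.42% lower. Eomes, a regulator of effector and memory T cells, was at 32.4 against 18.6 CPM, 1.74-fold higher (1.11 to 2.79).

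Ifng, the cytokine that induces Cxcl9, stood at 137, 186 and 101 CPM in CD4 T cells and was 1.84-fold higher (1.55 to 2.18) in DU101 than in DU102, though past the rule against control in neither. It was the 1 listed gene higher of 30, beside 4.02% of all genes, while Ccl5, a chemokine that draws T cells, and Eomes were lower, beside 6.06%. In migratory DC, 0 of 24 listed genes were higher and 2 lower in DU101 than in control, beside 3.58% and 7.78% of all genes, with a median of -0.21 beside -0.082. Among the lower genes was Jak2, a kinase of the interferon-gamma receptor, at 183 against 287 CPM, 1.57-fold lower (1.35 to 1.82). In DU102, 0 of 24 were higher and 3 lower, beside 3.31% and 7.45%, with a median of -0.11 beside -0.085. Stat2 was at 13.4 against 45.8 CPM, 3.41-fold lower (1.56 to 8.82), Nfkb1, an NF-kB subunit, at 104 against 161 CPM, 1.55-fold lower (1.15 to 2.13), and Dpp4, the protease that trims CXCL10, at 69.1 against 108 CPM, 1.56-fold lower (1.08 to 2.31). In these 55 DU102 cells 3 counts are 5.76 CPM, so the Stat2 value rests on few UMIs. Cells of the cDC2 cluster were 1.82% of this gate in DU102 against 13.6% in control, and the part of this make-up was not tested. In hepatocyte or tumour cells 0 of 18 were higher in DU101 than in control and 0 lower, beside 4.48% and 14.9% of all genes. In DU102 1 of 20 was higher, Ifngr1, a chain of the interferon-gamma receptor, at 35.6 against 17.9 CPM, 1.99-fold higher (1.21 to 3.41), and 0 lower, beside 3.27% and 6.44% of all genes.

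Genes with the most similar pattern were ranked by Pearson's r of log2(CPM + 1) over 57 points, the 19 cell types of each library, among 10093 genes. The points share libraries and cell types, so r is a description. For Cxcl9 the closest were Cxcl16 (0.892), Nav1 (0.857), Nostrin (0.853), Tax1bp3 (0.838) and Anxa5 (0.838), so a second ligand of the set came first. For Cxcl16 they were Cttnbp2nl (0.910), Tspan33 (0.901), Rtn4 (0.899), Anxa5 (0.898) and Nav1 (0.894). Cxcl10 had no close companion, with Hnrnpll (0.645), Eif4e2 (0.630), Errfi1 (0.623), Pim3 (0.618) and Ifrd1 (0.614). For Cxcr3 they were Kbtbd11 (0.928), Tespa1 (0.869), Cd27 (0.854), Ikzf2 (0.852) and Tbc1d10c (0.850), with Cd27 a costimulatory receptor of T cells. For Cxcr6 they were Bcl11b (0.940), Camk4 (0.929), Trbc2 (0.929), Nsg2 (0.920) and Actn2 (0.920), among them Bcl11b, a regulator of T cell identity, and Trbc2, a constant part of the T cell receptor.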

How the data were processed

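UMIs of single cells were counted in 3 libraries (control, DU101, DU102), 1 per group, with library totals of 91013198, 106604935 and 96817875 UMIs. The authors deposited matrices of raw UMI counts per gene and barcode, which per the file headers came from Cell Ranger 6.0.0. The submitters' processing notes instead give version 2.1.1 of that tool, with build mm10. The deposited cluster tables assign no barcodes and were not used. Kept cells had 200 or more genes, 10% or less mitochondrial UMIs, and were not called doublets by Scrublet (run through scanpy 1.11.5, expected rate 0.008 scaled to barcode number), which removed 2.53, 3.14 and 2.06% of the cells it was run on. Barcodes shared by a pair of libraries were at most 0.418% of the barcodes deposited for either. Types were gated on summed marker UMIs: CD3 genes for T cells, Ncr1 and Klrb1c for NK cells and ILC1, Fscn1, Ccr7, Ccl22 and Cacnb3 for migratory DC, Xcr1 and Clec9a for cDC1, and the like. UMIs were summed by type and library and scaled to CPM. With cells not being replicates, ratios of summed counts got an exact conditional 95% interval in types with 50 or more cells in each library, and a library at 0 was set to a floor of 3 counts. The calculation of intervals and calls was run on simulated counts, which checks the code and gives no error rate for the real calls. Shares of cells were also taken after thinning each cell to 2000 UMIs, leaving out shallower cells. Leiden clusters (resolution 1.0) checked the gates: 84.3% of gated cells in a named cluster carried the same name. Alternatives changed the mitochondrial and gene limits, doublets, gates, cell weights, clusters and sex. The 5 genes, gates and gene lists were chosen with earlier results of these data known. Named beyond the 5 genes are listed pathway genes past the rule of size in the leading types and the 5 nearest genes by r, and some of the listed genes are counted but not reported here by name. The genes of cells with and without a member were compared and chosen after values were seen. Motifs were sought on both strands, in RefSeq promoters of 4 of the 5 genes (all but Cxcl16). Cxcl10, Cxcl16 and Cxcr6 overlap Art3, Zmynd15 and Fyco1 on the opposite strand, and whether counting used strand is not stated in the labels or headers. Tools were SciPy 1.17.1 and NumPy 2.4.6 under Python 3.11.15, with pandas 2.3.3, and matplotlib 3.10.9 for plots.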

Additional observations from a re-analysis of the deposited data

How the results depend on the processing

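Ratios of 71 kinds were recomputed under up to 10 other settings, of which the last 2, adding mixed cells and leaving out the 5 highest cells, were chosen after seeing the data. Values are log2 ratios, against control unless DU101/DU102 is written. The 10 ratios in the leading types stayed within the 95% interval of the reported value in 69 of 88 values. Of 567 values for the other ratios 411 did, 128 lay outside it in the same direction or without a call, and 28 turned. In all, 46 of the 64 called ratios never turned. For Cxcl9 in migratory DC, DU101, the value of -0.11 became -0.63 (gate minimum doubled), -0.44 (cells weighted alike), -0.26 (mixed cells given to the leading lineage), 0.54 (without the 5 cells highest in the member). For Cxcl9 in migratory DC, DU102, the value of -0.89 became -0.51 (cells weighted alike), -2.81 (without the 5 cells highest in the member). For Cxcl10 in hepatocyte or tumour cells, DU101, the value of 0.30 became -0.38 (at most 5% mitochondrial UMIs), 1.32 (gate minimum doubled), 1.72 (joint Leiden clusters), -0.88 (cells weighted alike), 1.58 (mixed cells given to the leading lineage), 1.69 (without the 5 cells highest in the member). For Cxcl10 in hepatocyte or tumour cells, DU102, the value of 0.93 became 0.71 (at most 5% mitochondrial UMIs), 1.28 (gate minimum doubled), 1.60 (joint Leiden clusters), -0.79 (cells weighted alike), 1.54 (mixed cells given to the leading lineage), 3.24 (without the 5 cells highest in the member). For Cxcl16 in migratory DC, DU102, the value of 0.22 became -0.010 (joint Leiden clusters). Directions of called ratios that turned were as follows. With each cell weighted alike: Cxcl10 DU101 0.17 in neutrophil, Cxcl10 DU102 0.16 in neutrophil precursor, 0.39 in endothelial. Among cells with Y-linked RNA but without Xist: Cxcl9 DU101/DU102 -0.73 in neutrophil, Cxcl9 DU102 -2.68 in patrolling monocyte, Cxcl10 DU101/DU102 0.72 in patrolling monocyte, Cxcl10 DU102 2.12 in classical monocyte, Cxcl16 DU101 -0.14 in CD8 T, Cxcl16 DU101/DU102 -0.31 in CD8 T. Without the 5 cells highest in the gene: Cxcl10 DU102 0.0039 in neutrophil precursor, Cxcl9 DU102 -0.48 in classical monocyte, -0.33 in endothelial. With types from joint Leiden clusters: Cxcl10 DU101 -1.12 in migratory DC, Cxcl9 DU102 -5.10 in patrolling monocyte, -2.18 in hepatocyte or tumour, Cxcl10 DU102 -1.40 in patrolling monocyte, 0.24 in Treg, Cxcl10 DU101/DU102 0.66 in patrolling monocyte, 0.12 in hepatocyte or tumour, Cxcl9 DU101/DU102 1.59 in hepatocyte or tumour. With the gate minimum doubled: Cxcl9 DU102 -3.58 in patrolling monocyte, -0.34 in endothelial, Cxcl10 DU102 -0.61 in patrolling monocyte, 0.34 in Treg, Cxcl10 DU101/DU102 0.035 in hepatocyte or tumour. With mixed cells given to the leading lineage: Cxcl9 DU102 -0.73 in patrolling monocyte, Cxcl10 DU101/DU102 0.037 in hepatocyte or tumour, Cxcl10 DU102 0.13 in Treg. The cause of each change was not tested. Cells with Y-linked RNA but without Xist gave 33 of the 71 values, and the other comparisons held too few such cells. No paired analysis was possible because each group has 1 library and all carry replicate number 1. No library could be left out for the same reason. Depth limits the low types: ratios under 30 UMIs over both libraries were not read.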

Other observations

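T cells with the NK receptor gene Klrb1c, a gate that NKT cells and some other T cells meet, held Cxcr6 at 66.0, 134 and 75.5 CPM and Cxcr3 at 46.7, 68.9 and 67.2 CPM, in 362, 286 and 243 cells. Cells that met no gate had Cxcl9 at 37.5, 133 and 21.9 CPM, Cxcl10 at 240.3, 259.7 and 167 and Cxcl16 at 61.0, 70.2 and 41.4. Cells in Kupffer clusters, more numerous than those of the Kupffer gate, had Cxcl16 at 245, 272 and 234 CPM and Cxcl9 at 31.8, 70.0 and 43.4. Of the migratory DC with a Cxcl9 UMI, 93.5, 88.7 and 92.3% also held Cxcl16, against 86.2, 88.5 and 83.3% of those without. In macrophages the same shares were 86.2, 77.3 and 73.3% and 57.5, 62.3 and 50.2%.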
